A study of Mus musculus with 44 samples.

Results

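The MK2 inhibitor ATI-450 was compared with its vehicle in the intestine of non-inflamed T cell transfer mice. All samples whose labels gave the transfer model, the non-inflamed state and either treatment were taken, which made 11 of the 44 libraries of the study, 6 with the inhibitor and 5 with vehicle. The mice were C57BL/6 animals without Rag1, which cannot make T or B cells of their own. Each had received 200000 bulk T cells by injection into the abdomen, a mixture that includes the regulatory cells that hold colitis in check, and these animals were the study's uninflamed controls. The inflamed mice of the same model (6 vehicle and 6 inhibitor libraries) had received 400000 naive T cells and developed colitis within 8 to 12 weeks. The study also held TNFΔARE mice and their Tnf +/+ littermates. Those wild-type littermates (5 vehicle and 5 inhibitor libraries) carried their own lymphocytes and entered the treatment groups at 16 weeks of age, while no age was given for the transfer mice.

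ATI-450 was given at 3 mg/kg and the controls received the methylcellulose, Tween20 and PBS vehicle. A second dose followed after 16 h and tissue was taken 90 min after it, whereas the series description speaks of 24 h of treatment. The tissue label is intestine, and the protocol names distal colon and ileum without saying which was taken from which animal. Poly-A RNA was sequenced with a strand-specific kit. Nothing in the labels says whether animals were pooled or housed apart, so p-values measure the spread between these samples only.

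MK2 is a protein kinase switched on by the stress kinase p38. Among its substrates is tristetraprolin (gene Zfp36), a protein that binds AU-rich elements in the tails of short-lived mRNAs such as that of the cytokine TNF and hastens their decay. Phosphorylation by MK2 blunts this action, and in inflamed gut the pathway is known for raising TNF, interleukin-1 and chemokine output. Another MK2 substrate is the small heat shock protein HSP27 (gene Hspb1).

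Inhibitor replicate 5 held 6.78 M counts in all (M, 10 to the 6th power), and the other libraries between 16.3 and 19.3 M. Levels are given in CPM, counts per M on library sizes scaled by TMM, and in inhibitor 5 a level of 0.426 CPM corresponds to 3 counts. Vehicle replicates 1, 2 and 4 and inhibitor replicates 1 to 4 carried the batch label 1, vehicle replicates 6 and 7 and inhibitor replicate 6 the label 4, and inhibitor replicate 5 the label 3, which no non-inflamed vehicle library had. The labels do not say what a batch was. Distal gut transcripts were present in every library, with Hoxb13, a positional gene of the hind end, at 261 to 613 CPM, while sucrase-isomaltase (Sis), a small intestinal brush border enzyme, stayed at or below 1.21 CPM. Rag1 itself read 1.42 to 3.32 CPM, but which part of the gene the null allele removes is not given in the sources used here, so this checks nothing. Y-linked Ddx3y was above 10 CPM in 1 of 5 vehicle and 3 of 6 inhibitor libraries.

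Several libraries stood apart. Vehicle 7 and inhibitor 5 had the highest levels of inflammatory transcripts, with the neutrophil alarmin S100a8 at 30.3 and 40 CPM against at most 1.8 in the other 9. Vehicle 7, inhibitor 5 and inhibitor 6 held keratins of squamous epithelium, with Krt5 at 28.3, 20.3 and 16.2 CPM against at most 0.591 elsewhere. Skeletal muscle actin (Acta1) was at 215 CPM in inhibitor 5, and the adipocyte hormone adiponectin (Adipoq) at 101 CPM in inhibitor 1. These libraries were kept. Medians were followed for 56 groups of genes, among them the 53 gene lists. The rest were genes higher or lower in inflamed TNFΔARE mice and genes with 2 or more copies of the AU-rich element TTATTTATT. Of these 56 groups, 33 had a median that changed sign when at least 1 of the 11 libraries was left out, and 11 changed sign without vehicle 7.

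The first question was whether any transcript differed between inhibitor and vehicle. None passed the test: of 15317 genes tested with edgeR's quasi-likelihood test, with the treatment group and batch as terms, 0 passed an adjusted p of 0.05 (0% of genes), and the adjusted p was 1 for every gene. At an unadjusted p under 0.05 there were 183 genes, 1.19% of those tested, of which 95 were higher with the inhibitor (0.62%) and 88 lower (0.575%). If no gene differed, a share near 0.05 would fall under this limit, so 183 genes are no excess. The smallest unadjusted p of all genes was 0.00236. Without vehicle 7 and inhibitor 5 again 0 genes passed, and 0 without the 3 libraries with squamous keratins. DESeq2 called 8 genes, 6 higher and 2 lower, with 271 at an unadjusted p under 0.05. Of these 8, Reg3a, Gm5483, Stfa2l1, Pla2g1b and Pnlip had counts in a single library of the 11, Scaper in a pair of inhibitor libraries, and Nup205 was at 0 in 5. The eighth, Pla2g4c, was high in a pair of inhibitor libraries.

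The absence of calls goes with intervals that differ widely between genes. Log2 differences (inhibitor minus vehicle, adjusted for batch) had a median of −0.00455 over all genes and a median standard error of 0.255. For 10785 genes (70.4%) the 95% interval lay within 1 log2 unit of no change. Among the 9347 genes that averaged 10 CPM or more this held for 8397 (89.8%). For scarce transcripts, which include most cytokines, the intervals were much wider, and a difference of several fold in either direction was not detectable at this depth and spread. An estimated difference past 1 log2 unit was seen for 472 genes (3.08%).

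No gene of the kinase pathway itself passed the test, and most intervals were narrow. Mapkapk2, which encodes MK2 (chromosome 1, 131053700 to 131097826, minus strand, GRCm38), stood at 109, 98.7, 94.4, 92.8 and 108 CPM in vehicle libraries 1, 2, 4, 6 and 7, against a lowest, median and highest of 96.5, 99.6 and 143 CPM with the inhibitor. The groups overlapped, the highest value being inhibitor 5. The log2 difference was 0.05 (95% interval −0.17 to 0.28). Mapk14, the p38α kinase upstream, showed −0.10 (−0.32 to 0.11), with 72.9 to 101 CPM under vehicle and 72.3 to 94.1 CPM under inhibitor. Of 20 members of the p38 and MK2 list, all tested, 0 passed, 0 had an unadjusted p under 0.05, 11 differences were positive and 9 negative, and the median was 0.03 beside −0.00455 for all genes. The upstream kinases showed 0.05 (Map2k3) and 0.37 (Map2k6, interval −0.09 to 0.84), and the sister kinase Mapkapk3 0.24 (−0.08 to 0.57). Tab1, an adaptor that activates p38, had the second smallest p of the list, with a log2 difference of 0.20 (−0.03 to 0.42). Its 5 vehicle libraries held 22.8 to 27.2 CPM and 5 of the 6 inhibitor libraries 28.1 to 31.3, while inhibitor 5 was at 18.3. Rps6ka5, which encodes the kinase MSK1, was at 0 in all 6 inhibitor libraries and in vehicle 1 and 2, and at 0.2, 0.985 and 1.8 CPM in vehicle 4, 6 and 7, so no fold is given. For 17 of the 20 genes the interval lay within 1 log2 unit.

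Transcripts with AU-rich elements are the ones MK2 is known to act on. The stretches below show where 5 of these mRNAs carry the element, as 30 bases of the annotated 3′ untranslated region read 5′ to 3′ from GENCODE transcripts on GRCm38, in the DNA alphabet, with each ATTTA core in capitals.
Tnf: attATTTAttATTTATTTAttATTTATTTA
Il1b: caaccacttacctATTTATTTAtgtATTTA
Cxcl1: gggtcctATTTATTTAtgtATTTATTTAtt
Cxcl2: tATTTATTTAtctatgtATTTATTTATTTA
Ptgs2: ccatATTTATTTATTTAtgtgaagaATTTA
They lie at chr17:35199679-35199708 (minus strand), chr2:129364808-129364837 (minus), chr5:90892604-90892633 (plus), chr5:90905327-90905356 (plus) and chr1:150105794-150105823 (plus). The longer element TTATTTATT, counted on the transcript strand with overlaps, occurred 5 times in the untranslated region of Tnf, 4 times in that of Cxcl2, 2 times in that of Cxcl1, 1 time in that of Ptgs2 and 0 times in that of Il1b.

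Levels of these mRNAs varied more between animals of the same group than between groups. Tnf stood at 0.192, 1.79, 2.73, 0.837 and 8.18 CPM in vehicle libraries 1, 2, 4, 6 and 7, and at 0.21, 0.442, 2.4, 2.84, 6.1 and 0.284 CPM in inhibitor libraries 1 to 6. Vehicle 7 and inhibitor 5 were the highest of their groups, and the ranges overlapped almost entirely. The log2 difference of Tnf was −0.54 with a 95% interval of −2.51 to 1.43 (edgeR, unadjusted p = 0.575). Without vehicle 7 alone it was 0.36, the only 1 of 28 other settings in which its sign changed.

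Il1b, which encodes interleukin-1β, was at 0.128, 1.11, 2.4, 1.03 and 4.32 CPM with vehicle, against a lowest, median and highest of 0.262, 0.597 and 11.2 CPM with the inhibitor. The log2 difference was −0.59 (−2.54 to 1.36), and inhibitor 5 held the highest level. Without inhibitor 5 it was −1.69 and without vehicle 7 −0.09. The neutrophil attractants Cxcl1 (−0.18, −2.48 to 2.12), Cxcl2 (−0.17, −3.33 to 2.99) and Cxcl5 (−0.89, −4.26 to 2.48) had intervals that reached past a 4-fold difference in both directions, and that of Cxcl1 moved between −0.77 without inhibitor 5 and 0.85 without vehicle 4. For Cxcl5 the vehicle libraries held 0.959, 1.32, 9.39, 0.886 and 27.3 CPM, and with the inhibitor the median was 0.952 and inhibitor 5 reached 102. Ptgs2, the inducible cyclooxygenase, was measured more tightly, at 4.92, 3.53, 2.8, 2.46 and 4.42 CPM with vehicle and a lowest, median and highest of 0.852, 3.42 and 5.05 with the inhibitor (log2 difference −0.42, −1.23 to 0.39, and −0.14 without inhibitor 6). Areg, an epidermal growth factor receptor ligand, had a difference of −0.60 (−1.59 to 0.38), which was −0.29 without vehicle 7. Il6 was at 0 in all 11 libraries, and 3 counts, the limit that a count of 0 allows, correspond to between 0.148 and 0.426 CPM (counting error only).

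Of the 24 genes on the list of cytokine and early inflammatory mRNAs with AU-rich elements, 19 passed the count filter. None passed the test and 0 had an unadjusted p under 0.05. The differences were negative for 16 and positive for 3, with a median of −0.42, but the median standard error was 0.946, and the interval of only 1 of the 19 lay within 1 log2 unit. The summed level of the 24 genes was 33.6 to 123 CPM with vehicle and 25.7 to 197 with the inhibitor. The median was 0.32 without vehicle 7, −1.45 without inhibitor 5 and −0.24 without both, so the list's sign depended on which of these libraries were kept. Members with the lowest estimates were Ccl3 (−1.44, −3.15 to 0.27) and Osm (−1.21, −3.22 to 0.80), a chemokine and a cytokine at or below 0.411 CPM in every library. The smallest p of the list was that of Ccl3 (0.095). Across the transcriptome, the medians were −0.0033 for 13406 genes without TTATTTATT in the annotated 3′ untranslated region, −0.0286 for 882 genes with 1 copy, −0.0240 for 159 with 2, and −0.0541 for 91 with at least 3. The middle 50% of the genes in the last class ran from −0.19 to 0.05 and those of the first from −0.14 to 0.13, so the classes overlapped widely. The share of genes with an unadjusted p under 0.05 was 1.19, 1.36, 0 and 1.1%, near the 1.19% of all genes tested. These classes held 92.2, 6.07, 1.09 and 0.626% of the 14538 tested genes with an annotated region, and 8 of the 19 cytokine list members had a copy.

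**Figure D1:**
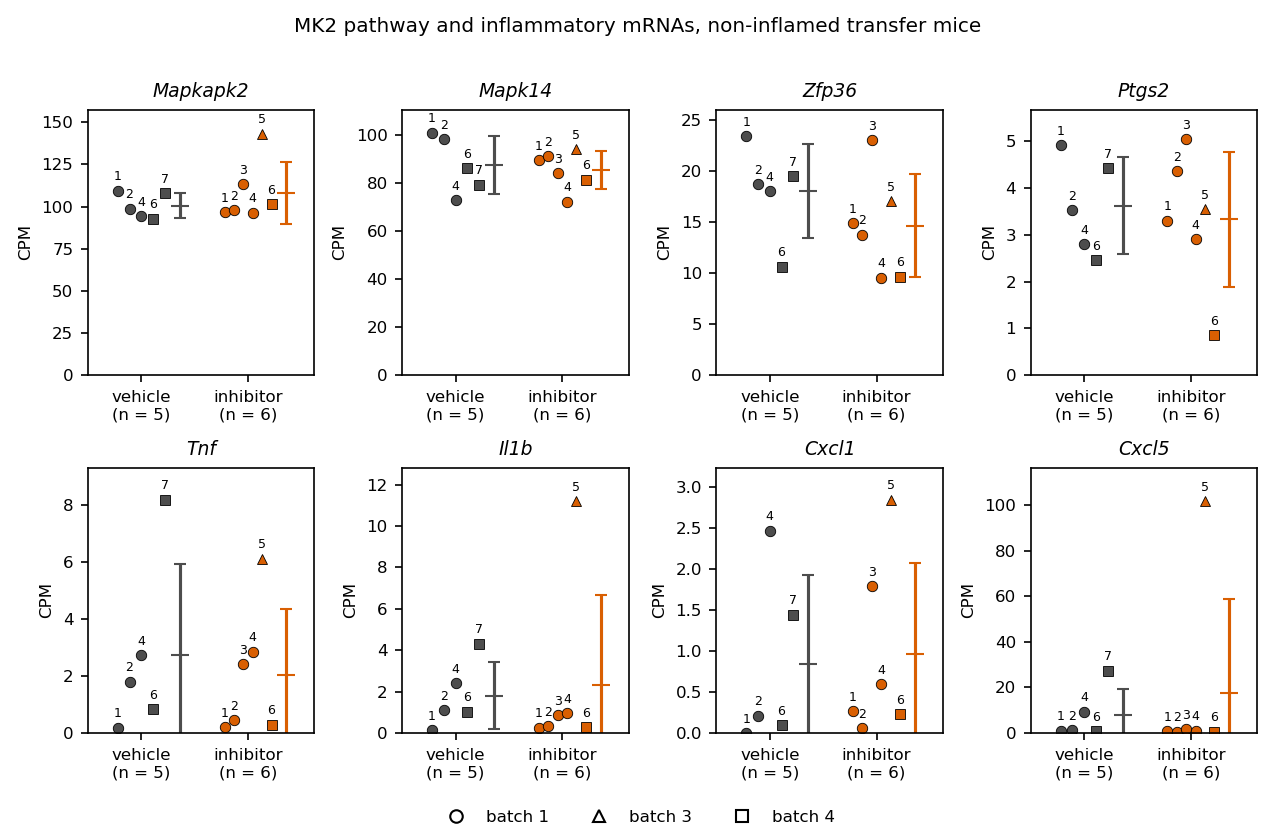
Levels in CPM (vertical axis, linear from 0) of 8 genes in the 5 vehicle and 6 inhibitor libraries. Each point is a library with its replicate number, shapes give the batch, and the bar beside each group is the mean with its SD, cut at 0. Mapkapk2 and Mapk14 vary little, while for Tnf, Il1b and Cxcl5 the highest points are vehicle 7 and inhibitor 5.

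The proteins that act on such mRNAs had differences of small size. Zfp36 stood at 23.4, 18.7, 18, 10.6 and 19.5 CPM with vehicle, against a lowest, median and highest of 9.54, 14.3 and 23 CPM with the inhibitor. These ranges overlapped, and the log2 difference was −0.39 (−0.98 to 0.20), or −0.21 without vehicle 7. Elavl1, which encodes the stabilising protein HuR, showed −0.43 (−1.09 to 0.23), and the poly(A)-binding protein gene Pabpc1 −0.18 (−0.40 to 0.04). Over the 18 AU-rich element binding and decay genes, 0 passed, 14 differences were negative and 4 positive, and the median was −0.13 (−0.03 without vehicle 2). For 15 of the 18 the interval lay within 1 log2 unit.

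Early response and feedback genes gave the same picture. Among 25 tested immediate early genes 0 passed, 16 differences were negative and 9 positive, and the median was −0.04. Fos stood at 56.2, 111, 101, 88.8 and 108 CPM with vehicle and at 70.7, 90.3 and 180.4 (lowest, median, highest) with the inhibitor, a log2 difference of 0.19 (−0.32 to 0.70). Its partner Jun showed 0.10 (−0.25 to 0.45). Fosb was the 1 member with an unadjusted p under 0.05 (0.032), but it was at 0 in vehicle 1, 2 and 4 and in inhibitor 5, and at 3.99 and 3.03 CPM in vehicle 6 and 7, so the groups overlapped and no fold is given.

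The dual specificity phosphatases, which switch MAP kinases off, had a median of 0.00 over 13 genes, with 7 positive and 6 negative and 0 past the test. Dusp1, the phosphatase of p38 that is itself induced by stress, was at 11.7 to 13.4 CPM with vehicle and 12.9 to 18.7 with the inhibitor (0.19, −0.28 to 0.65). Dusp22 had the largest estimate, 0.75 (−0.09 to 1.59), which was 0.47 without vehicle 1. Of 14 NF-κB subunits and feedback inhibitors 12 had negative differences and 0 passed, with a median of −0.13 that lay between −0.23 without vehicle 2 and −0.05 without vehicle 7. Bcl3, a nuclear IκB family member, lay closest to the threshold at −0.44 (−0.87 to 0.00; edgeR, unadjusted p = 0.0508). Its vehicle libraries held 44.8, 55.1, 75.3, 40.6 and 66.9 CPM and the inhibitor libraries 28.2, 42.3 and 67.2 (lowest, median, highest), which overlapped. The feedback inhibitors Nfkbia (−0.12, −0.73 to 0.49) and Tnfaip3 (−0.20, −0.63 to 0.22) lay nearer to 0.

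**Figure D2:**
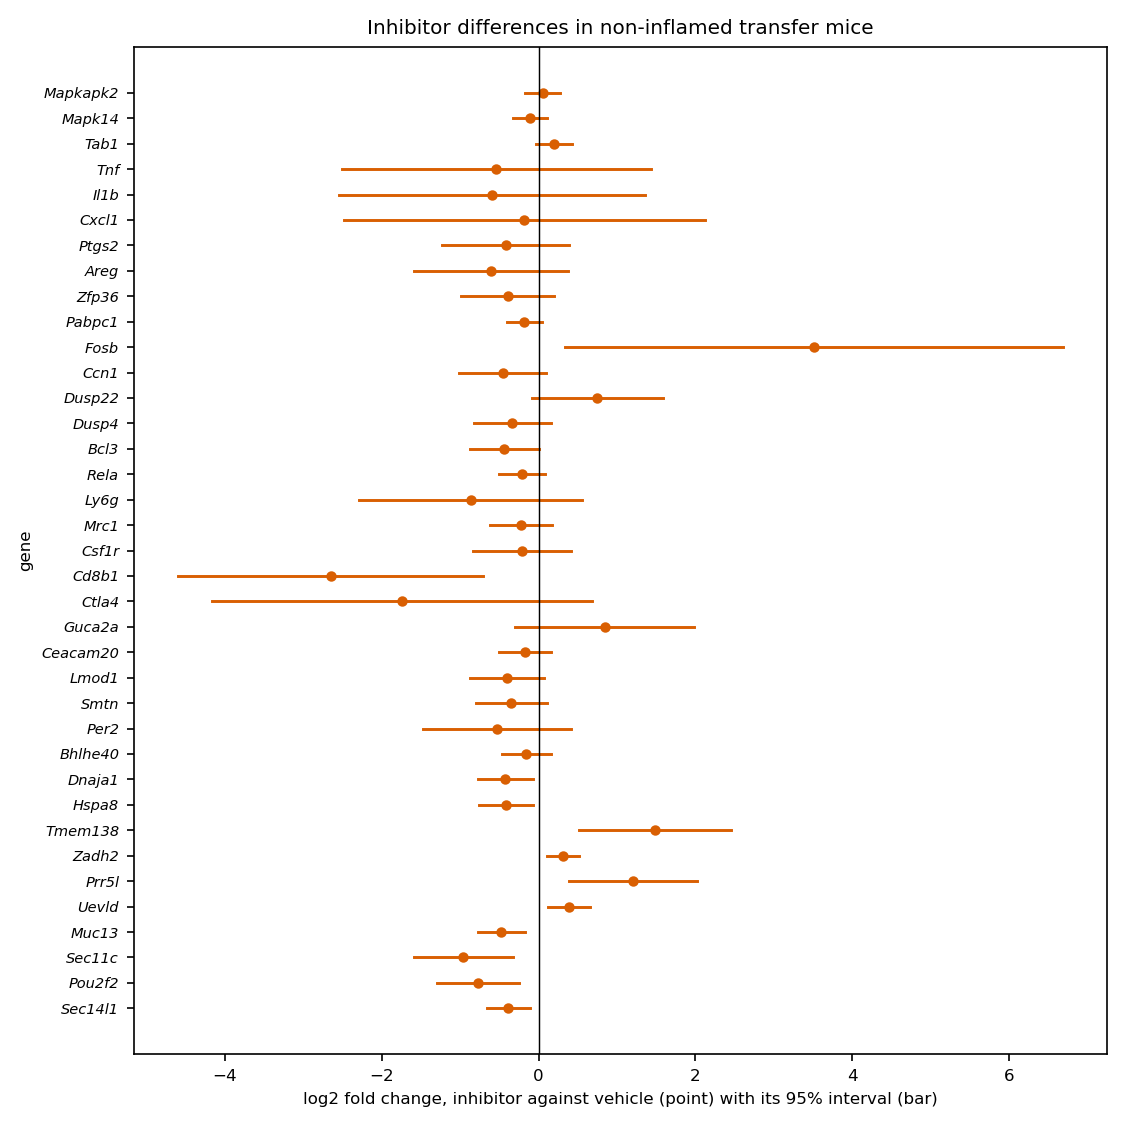
Log2 difference between inhibitor and vehicle (point, horizontal axis) with its 95% interval (bar) for genes named by the fixed rule, one per row, grouped by pathway. Pla2g4c, Nup205, Rps6ka5, Ccl3 and Stfa2l1, which were at or near 0 in most libraries or high in few, are not drawn. Cd8b1, Ctla4 and Fosb, also at 0 in several libraries, are drawn. Mapkapk2, Mapk14 and Tab1 have short bars around 0, and those of Tnf, Il1b and Cxcl1 span more than 3 log2 units.

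Immune transcripts differed strongly between animals within each treatment. A list score was taken as the mean log2 CPM of the members with a prior count of 2. For interferon-γ response genes, which include antiviral GTPases and T cell attracting chemokines, the score was 2.13, 4.37, 4.41, 2.87 and 6.99 in the vehicle libraries and 2.98, 2.25, 4.97, 5.28, 6.12 and 2.42 in the inhibitor libraries. Both groups thus held low and high animals, spanning 4.87 log2 units under vehicle and 3.87 under inhibitor. Inflamed vehicle libraries scored between 5.60 and 7.68, so vehicle 7 and inhibitor 5 fell inside that range although both are labelled non-inflamed. With inflamed vehicle replicate 3 set aside, which holds small intestinal transcripts, the lower end was 6.57 and inhibitor 5 lay below it.

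Interferon-γ response genes and MHC class II genes had the same 5 libraries at the top (vehicle 4 and 7 and inhibitor 3, 4 and 5), and T cell markers shared 4 of them. The MHC class II gene H2-Ab1, which encodes an antigen-presenting chain, was at 57.4, 344, 304, 42.6 and 908 CPM with vehicle and at 96.5, 64.8, 543, 1034, 577 and 36 with the inhibitor. Its log2 difference was 0.42 (−1.33 to 2.17). Of the 10 MHC class II genes 9 were positive, with a median of 0.32, and of 19 interferon-γ response genes 13 were negative, with a median of −0.08; 0 passed in either list. Without vehicle 7 these medians were 1.12 and 0.61, and that of the class II genes was −0.19 without inhibitor 4. No member of either list had an unadjusted p under 0.05. In whole tissue, fewer cells of a type and less RNA per cell cannot be told apart.

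T cell marker transcripts were scarce in every library of these mice, whose T cells come from the injected cells. Cd3e, which encodes part of the T cell receptor complex, stood at 0, 0.421, 1.27, 0.0492 and 3.96 CPM with vehicle and at 0.524, 0, 0.492, 0.593, 1.14 and 0 with the inhibitor. The groups overlapped, and the log2 difference was −1.34 (−3.54 to 0.86). Of 19 tested T cell markers 18 were negative, with a median of −0.86, 0 passed, and the summed level of the list ran from 8.47 to 97.4 CPM with vehicle and from 3.92 to 44 with the inhibitor. The median was 0.13 without vehicle 7 and −0.03 without the 3 squamous libraries, which include vehicle 7, so its size and sign depended on which libraries were kept. Cd8b1, a CD8 chain, had an unadjusted p of 0.0102 (edgeR) on levels of at most 0.666 CPM in any library. Macrophage markers centred on −0.08 (20 tested, 13 negative, 0 passed; 0.16 without vehicle 7), with Csf1r, the macrophage growth factor receptor, at 14.2 to 47.3 CPM with vehicle and 17 to 61.4 with the inhibitor (−0.21, −0.83 to 0.41; 0.04 without vehicle 7). Neutrophil markers centred on −0.01 (17 tested, 9 negative, 0 passed; 0.57 without vehicle 7 and −0.46 without inhibitor 5), and for none of them did the interval lie within 1 log2 unit.

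**Figure D3:**
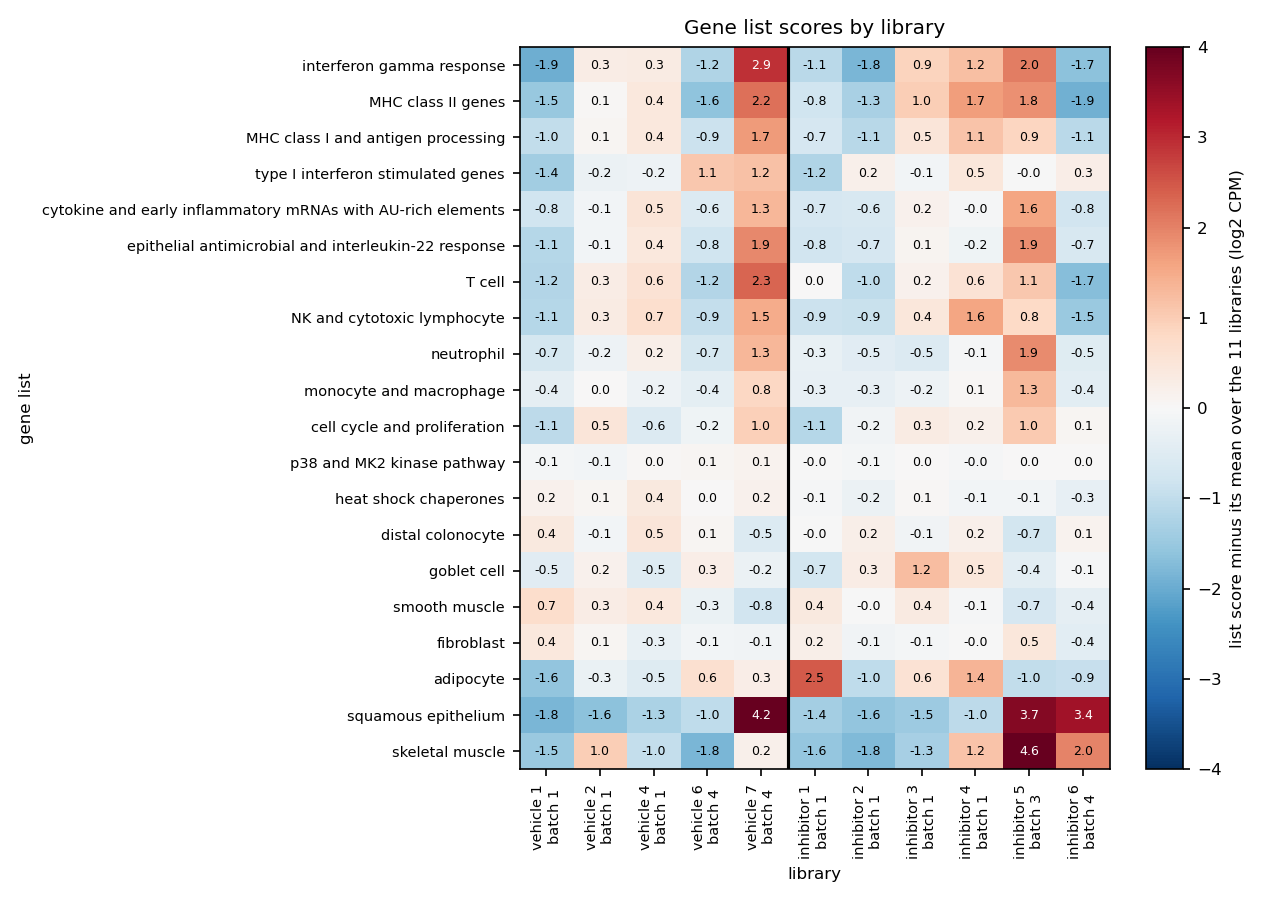
Score of each gene list (rows) in each library (columns, with the batch), as the difference in log2 CPM from the mean of that list over the 11 libraries. Red is above and blue below the mean, and the vertical line parts vehicle from inhibitor; vehicle 7 and inhibitor 5 are both red for interferon-γ response, MHC, T cell, neutrophil and macrophage genes, inhibitor 5 is at the mean for type I interferon genes, and the row of the p38 and MK2 pathway is near white throughout.

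Heat shock chaperones were the pathway with the smallest overlap between the groups. These proteins fold and refold other proteins and are induced together by the factor HSF1. Hspa8, the constitutive HSC70, stood at 2874, 2845, 2888, 2936 and 3178 CPM in the vehicle libraries (mean 2944 ± 135, SD, n = 5) and at 2643, 2186, 2182, 2052, 2101 and 1952 CPM in the inhibitor libraries (2186 ± 241, SD, n = 6). Complete separation of the groups, with the inhibitor below, was seen for 6 of 15317 genes (0.0392%), with 6 more above (0.0392%). It also occurred at large p, as for E2f6 (below) and Tspan5 (above), with unadjusted p of 0.336 and 0.443 (edgeR). For Hspa8, every inhibitor library lay below every vehicle library. The log2 difference was −0.41 (−0.76 to −0.07; edgeR, unadjusted p = 0.021, adjusted p = 1), so it did not pass the test over all genes. It was −0.36 without vehicle 7 and inhibitor 5 (unadjusted p = 0.0731), and −0.27 without the 3 squamous libraries (unadjusted p = 0.19).

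Hsph1, a co-chaperone of the HSP110 family, was the other member without overlap, at 48, 59.8, 49, 59.1 and 67.6 CPM with vehicle and 44.2, 40.6, 46.5, 32, 32.8 and 23.7 with the inhibitor. Its difference of −0.61 had an interval that included 0 (−1.47 to 0.24). Dnaja1, a co-chaperone that drives the ATPase of HSC70, stood at 184, 210.3, 261, 235 and 265 CPM with vehicle and at 171, 156, 202, 169, 161 and 145 with the inhibitor. All but inhibitor 3 lay below the lowest vehicle library, and the difference was −0.42 (−0.77 to −0.08; edgeR, unadjusted p = 0.0196). The stress-inducible Hspa1a (−1.15, −2.32 to 0.01) and Hspa1b (−0.91, −2.03 to 0.20) encode near-identical HSP70 proteins, so reads may have been split between them. Vehicle 4 was the highest library for both, with 72.4 and 155 CPM. Hsp90aa1, the inducible HSP90, showed −0.51 (−1.06 to 0.04) and its constitutive relative Hsp90ab1 −0.08 (−0.37 to 0.21). Hspb1, the MK2 substrate HSP27, ranged from 26.7 to 157 CPM within the vehicle group and showed −0.37 (−1.02 to 0.28).

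Of 16 tested chaperones 14 were negative and 2 positive (Hspe1 at 0.13 and Cryab at 0.22), with a median of −0.32 beside −0.00455 for all genes, 2 of 16 with an unadjusted p under 0.05 and 0 past the test. The summed level of the list was 6116 to 6937 CPM with vehicle and 4669 to 6016 with the inhibitor, while the score, in which each gene counts alike, ran from 5.96 to 6.33 and from 5.61 to 6.00 and so overlapped. Leaving out any single library kept the median between −0.37 and −0.28. In the inflamed mice the same list had a median of −0.13 and in the wild-type littermates −0.03. For Hspa8 itself, the inhibitor difference was −0.01 in inflamed transfer mice and 0.08 in wild-type littermates, both nearer to 0 than in the non-inflamed transfer mice. Inflamed minus non-inflamed gave 0.40 (unadjusted p = 0.0978) and non-inflamed minus littermates −0.50 (unadjusted p = 0.0914) in edgeR. Neither passed the threshold, and both contain the same non-inflamed transfer difference, so they are not independent of each other. Hspa8 and the list were singled out by their values in the non-inflamed transfer mice. Estimates nearer to 0 in the other mice can follow from that choice alone. Genes of the unfolded protein response, the matching programme of the endoplasmic reticulum, were negative for 15 of 18 with a median of −0.16 and 0 past the test. That median was −0.05 without vehicle 7, the highest vehicle library for the list. Its main chaperone Hspa5 (BiP) showed −0.45 (−0.92 to 0.02).

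**Figure D4:**
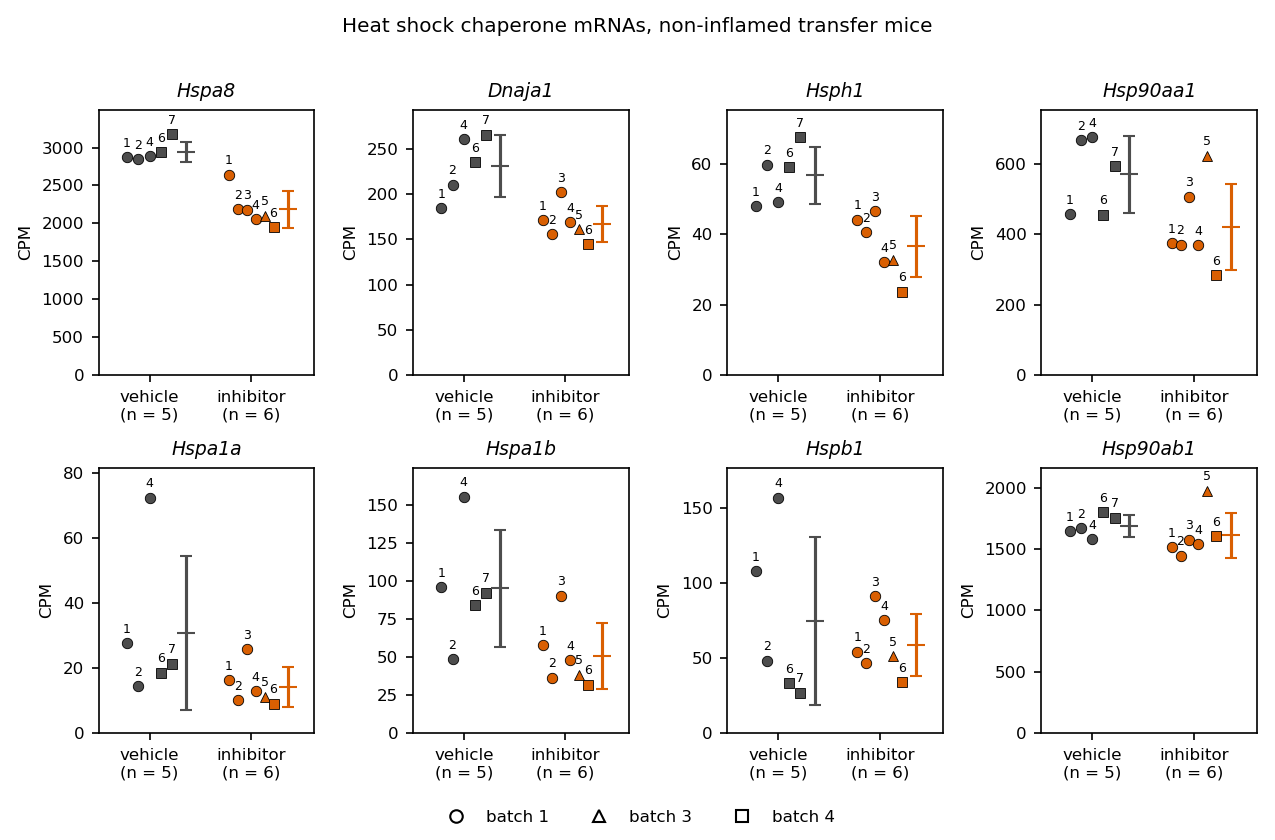
Levels in CPM (vertical axis, linear from 0) of 8 heat shock chaperone genes in the 5 vehicle and 6 inhibitor libraries, with replicate numbers, batch shapes and mean with SD. Hspa8 and Hsph1 show no overlap between the groups, all others do, and vehicle 4 is highest for Hspa1a, Hspa1b and Hspb1.

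Genes with the smallest p outside the lists are described as estimates, since none passed. Muc13, a membrane mucin of the epithelial surface, stood at 3338, 4323, 4408, 2476 and 4089 CPM with vehicle against a lowest, median and highest of 2200, 2810 and 3620 with the inhibitor. Vehicle 1 and 6 lay within the inhibitor range, and the log2 difference was −0.47 (−0.78 to −0.17; edgeR, unadjusted p = 0.00383). Sec14l1, a lipid-binding protein gene, showed −0.38 (−0.65 to −0.11), and Pou2f2, a lymphoid transcription factor, −0.78 (−1.30 to −0.25; −0.46 without vehicle 4). Sec11c, a signal peptidase subunit, had −0.96 (−1.59 to −0.33), with 11, 12.9, 8.06, 3.74 and 4.58 CPM with vehicle and 0.851 to 6.52 with the inhibitor. On the positive side were Zadh2 (0.31, 0.10 to 0.51), Uevld (0.39, 0.12 to 0.65), Tmem138 (1.48, 0.51 to 2.45) and Prr5l (1.20, 0.39 to 2.02). Zadh2, an oxidoreductase gene, was at 80.7 to 102 CPM with vehicle and above that range in 5 of the 6 inhibitor libraries (105 to 120.4), with inhibitor 5 at 80.4. Camk2b, a calcium-dependent kinase gene, lay above vehicle in all inhibitor libraries, at 9.21 to 10.5 against 10.8 to 15.6 CPM (0.33, −0.06 to 0.72).

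Other genes with a small p rested on a few libraries. Pla2g4c, a cytosolic phospholipase A2 gene, was at 645 and 56.6 CPM in inhibitor 3 and 4 and between 0.256 and 2.7 CPM in the other 9 libraries. Nup205, which encodes a nuclear pore protein that all cells need, was at 0 in vehicle 4 and inhibitor 1 to 4 and at up to 42.8 CPM elsewhere. Such switching, with 0 in at least 1 library and 10 CPM or more in another, was seen for 196 tested genes, of which 7 had an unadjusted p under 0.05.

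No epithelial gene passed the test, and levels of several differed strongly between animals within each treatment. Antimicrobial and interleukin-22 response genes were negative for 15 of 19 tested, with a median of −0.54 that was −0.03 without vehicle 7, and 0 passed. The lectin Reg3b was at 1371 CPM in vehicle 7 and 306 in inhibitor 5, and at 5.05 to 66.4 in the other 9. Duox2, which makes hydrogen peroxide at the epithelial surface, was the 1 member with an unadjusted p under 0.05 (0.0171). Its vehicle libraries held 67, 145, 244, 60.8 and 189.9 CPM and the inhibitor libraries 38.5, 81.3 and 136 (lowest, median, highest), which overlapped (−0.98, −1.76 to −0.19).

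Goblet cell genes were positive for 14 of 15, with a median of 0.19 (0.14 to 0.30 with any single library left out) and 0 past the test. The main secreted mucin, Muc2, stood at 770.3, 1351, 775, 1073 and 518 CPM with vehicle and at 696, 2282, 3864, 852, 457 and 757 with the inhibitor (0.68, −0.27 to 1.63), so inhibitor 2 and 3 were above all vehicle libraries and inhibitor 5 below them. Retnlb and Ang4, antimicrobial products of goblet and Paneth cells, reached 2227 and 1601 CPM in inhibitor 3, against at most 177 and 157 CPM with vehicle. Cytochrome P450 and conjugation enzymes were positive for 21 of 23 with a median of 0.29 (0.17 to 0.32 with any single library left out). Cyp2e1, also a liver and fat enzyme, was at 198 CPM in inhibitor 1. Distal colonocyte markers centred on −0.14 (18 tested, 13 negative; 0.02 without vehicle 4). Nuclear-encoded respiratory chain genes were positive for 16 of 19 (median 0.09), and cholesterol synthesis genes negative for 16 of 18 (−0.12), each with 0 past the test. The latter median was 0.15 without vehicle 2, so 1 library set its sign.

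Connective tissue lists had small medians, with 13 of 13 smooth muscle genes (−0.17), 14 of 14 fibroblast genes (−0.12) and 13 of 14 collagen genes (−0.25) negative and 0 past the test. Without vehicle 1 the smooth muscle median was −0.07 and the collagen median −0.09. In 28 other settings the fibroblast median had the other sign in 2, the smooth muscle median in 1 and the collagen median in 0. Mean scores without adjustment for batch were 5.57 with vehicle and 5.69 with the inhibitor for collagen genes. They were 4.47 and 4.48 for fibroblast genes and 7.90 and 7.77 for smooth muscle genes. The smooth muscle regulator Lmod1 was at 134, 95.5, 106, 57.2 and 43.5 CPM with vehicle and at 43.1, 63.1 and 120.0 (lowest, median, highest) with the inhibitor. The 2 vehicle libraries of batch 4 were the lowest of that group. Over the libraries the summed smooth muscle level ran from 3297 to 10833 CPM with vehicle and from 4034 to 8255 with the inhibitor. Fat markers were positive for all 10 tested, with a median of 1.53 that was 0.40 without inhibitor 1, and their sum was 220.4 to 324 CPM with vehicle and 188 to 1585 with the inhibitor. The part that the amount of muscle or fat in a piece of tissue had in the other results was not tested.

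The same inhibitor differences were set beside those in the other mice. Inflamed and non-inflamed transfer mice share no library, and the test of the difference between their inhibitor effects called 0 of 15317 genes (0%) in edgeR, with 299 at an unadjusted p under 0.05 (1.95%), 129 positive (0.842%) and 170 negative (1.11%), against 1 call by limma-voom and 9 by DESeq2. In the inflamed mice alone 1 gene passed (0.00653%), with 467 at an unadjusted p under 0.05 (3.05%), of which 190 were higher (1.24%) and 277 lower (1.81%). That gene was Nrn1, which encodes the neuronal protein neuritin and had a log2 difference of −3.97 there (edgeR, adjusted p = 0.0487). In non-inflamed mice Nrn1 stood at 3.07, 2.21, 2.93, 0.246 and 0.926 CPM with vehicle and at 0.426, 1.85 and 3.09 (lowest, median, highest) with the inhibitor, a log2 difference of −0.22 (−1.19 to 0.76). The difference between the effects was −3.76 (edgeR, unadjusted p = 7.43e-05, adjusted p = 1), which was past the threshold in limma-voom (adjusted p = 0.00269) and in DESeq2 (adjusted p = 0.00174). Camk2b was among the next lowest by p, at −0.99. Sec11c, Acrbp and Ccar1 had the smallest p on the positive side, at 1.83, 2.48 and 0.92, each with an adjusted p of 1.

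Against the wild-type littermates the comparison also spans the genotype and the model, and Hoxb13, high in the transfer mice, did not pass the count filter in the littermates' model. In a joint fit of all 44 libraries, 0 of 15565 genes (0%) differed in their inhibitor effect in edgeR, with 236 at an unadjusted p under 0.05 (1.52%), 160 positive (1.03%) and 76 negative (0.488%), and DESeq2 called 65. In the littermates alone 0 of 14370 genes passed (0%), with 373 at an unadjusted p under 0.05 (2.6%), of which 90 were higher (0.626%) and 283 lower (1.97%). Lipoprotein lipase (Lpl, 4.38), haptoglobin (Hp, 4.89) and Timp4 (2.72), all known to be made by fat cells, had the smallest p on the positive side. The median of all tested adipocyte markers was 1.53 in the non-inflamed transfer mice (10 genes, 0.40 without inhibitor 1) and −2.58 in the littermates (12 genes). The part of fat tissue in these differences was not tested. In the non-inflamed transfer mice the inhibitor differences of Lpl, Hp and Timp4 were 1.47, 1.21 and 0.27, and in the littermates −2.93, −3.74 and −2.45. Lpl stood at 228 CPM in inhibitor 1, the library with the most adiponectin, against 8.8 to 47.6 CPM in the other 10. On the negative side were Nup205, Pan2 and Bcl3, of which the first and second were at 0 in 5 and 7 of the 11 libraries. For Bcl3 the difference between the effects was −0.92 (edgeR, unadjusted p = 0.00152, adjusted p = 1), from −0.44 in the transfer mice and 0.48 in the littermates.

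Mapkapk2 had inhibitor differences of 0.05 in the non-inflamed transfer mice, −0.04 in inflamed transfer mice and 0.02 in the littermates. For Tnf they were −0.54, 0.12 and 0.08, and for Zfp36 −0.39, 0.02 and 0.35. List medians in the 3 settings stayed within 0.2 log2 units of 0 for the p38 and MK2 pathway (0.03, −0.03 and 0.09) and the immediate early genes (−0.04, 0.00 and −0.02). Cytokine mRNAs with AU-rich elements had medians of −0.42, −0.08 and −0.08, and the heat shock chaperones −0.32, −0.13 and −0.03. T cell markers had −0.86, 0.64 and −0.12, the first of which was 0.13 without vehicle 7. Some lists had other numbers of genes tested in the littermates than in the transfer mice, for cytokine mRNAs 14 against 19. None of these differences between medians was tested.

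**Figure D5:**
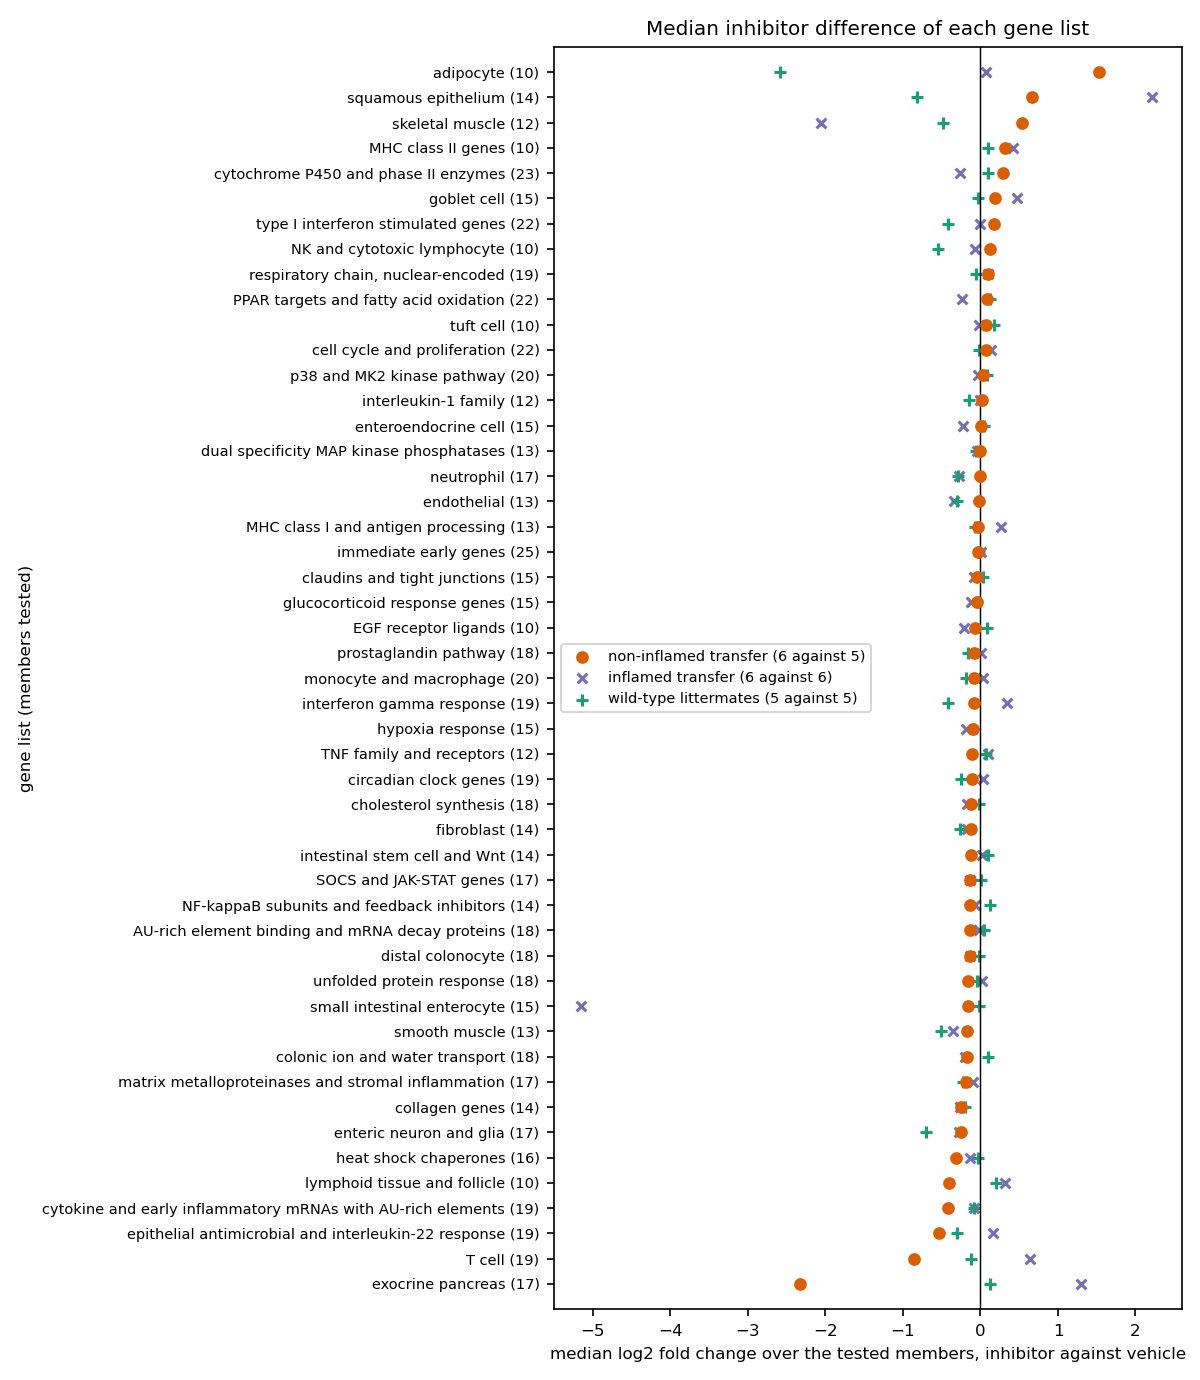
Median log2 difference, inhibitor against vehicle (horizontal axis), of gene lists (rows, with members tested in the transfer mice). Lists with few members tested (B and plasma cell, mast cell, eosinophil and Paneth cell) are not drawn. Littermate medians can rest on fewer members, for squamous epithelium 2 against 14. Points give non-inflamed transfer mice, inflamed transfer mice and wild-type littermates. Most lists lie close to 0 in all 3; adipocyte markers are at 1.53 in the non-inflamed transfer mice and −2.58 in the littermates, and the small intestinal list is at −5.15 in inflamed mice, where 1 vehicle library holds small intestinal transcripts.

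Genes that respond to inflammation in the other model were followed as a last comparison. Of the 200 genes with the smallest p among those higher in TNFΔARE than wild-type vehicle mice, 198 were tested here. Their inhibitor differences were negative for 139 and positive for 59, with a median of −0.16 beside −0.00455 for all genes, and 0 passed. For the 200 lower genes, 187 were tested, 119 were positive and 68 negative, and the median was 0.07. The median of the first set was 0.12 without vehicle 7 and −0.34 without inhibitor 5. Within a treatment these genes ranged widely, with a median span of 1.71 log2 units over the vehicle and 2.00 over the inhibitor libraries, against 1.04 and 0.95 for the lower set.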

How the data were processed

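Whole-tissue RNA sequencing of 44 mouse intestine libraries was deposited by the authors in tables of expected counts per gene (estimated reads, not scaled) and tables of normalized signal. Salmon 0.14.1, DESeq2 (no version) and the builds mm10 and GRCm38 are named in the submitters' processing notes. The annotation release and the settings were not given in the sources used here. Each deposited table holds 29720 genes, of which 29395 identifiers matched GENCODE on GRCm38, and the deposited normalized signal was used only for an alternative.

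Expected counts were rounded and analysed in R 4.3.3 with edgeR 4.0.16: TMM scaling, filterByExpr by group, and a robust quasi-likelihood fit of all 23 transfer libraries with group and batch as terms, two-sided, with Benjamini-Hochberg adjustment over all genes at 0.05. Inhibitor 5 is the only non-inflamed library of batch 3, so its batch term comes from inflamed libraries. The difference from inflamed mice is the interaction in that fit, and that from wild-type littermates comes from a joint fit with batch nested in model. List scores use a prior count of 2. No library was dropped or imputed, and no pair of libraries was identical (highest correlation 0.972).

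The members and the 53 gene lists (870 of 875 entries matched) were chosen with earlier results of these data known. The rule names Tnf, Il1b, Il6, Cxcl1, Ptgs2, Zfp36, Mapkapk2 and Mapk14 always, 5 genes in each direction with the smallest p at a mean of at least 1 CPM (3 for differences between effects), and the 2 members with the smallest p of 13 lists. Other list members, Camk2b as a gene without overlap, and genes called by DESeq2 were chosen after their values were seen. Sequences are from GENCODE transcripts. The labels name no molecular identifiers, so counts may include PCR copies, and floors cover counting error only. As alternatives, DESeq2 1.42.0, limma-voom (limma 3.58.1), limma on log2 of the normalized signal plus 1, RLE scaling, a fit without filter or without batch, a replicate block in its place, the 2 groups or 1 batch alone, and fits with libraries left out were run. The test was checked on simulated data.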

Additional observations from a re-analysis of the deposited data

Results flagged for a closer look

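In 188 sets of values, each a gene or list score in the 5 vehicle or 6 inhibitor libraries, 21 had 1 library farther from the rest than Dixon's limit, where chance flags about 1 in 20. Values are scores or levels in log2 CPM.

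Inhibitor 5, the shallowest library, accounted for 13 of them. It was the highest inhibitor library for the antimicrobial and interleukin-22 response (5.32, others 2.70 to 3.58), the interleukin-1 family (3.37, others 1.53 to 2.19), neutrophil markers (0.991, others −1.46 to −0.97), macrophage markers (4.30, others 2.604 to 3.07), Il1b (3.50, others −1.36 to 0.11), Csf1r (5.94, others 4.10 to 4.52), Mrc1, a mannose receptor of macrophages (5.04, others 3.46 to 3.95), Ccl3 (−1.28, others −2.97 to −2.40) and Stfa2l1, a neutrophil protease inhibitor (−0.854, others −2.97). It was the lowest for cytochrome P450 and conjugation enzymes (3.48, others 3.97 to 4.26), Tab1 (4.20, others 4.82 to 4.97), Zadh2 (6.33, others 6.72 to 6.91) and Sec11c (−0.031, others 1.96 to 2.73).

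Vehicle 7 was the highest vehicle library for Hspa8 (11.63, others 11.47 to 11.52), for the unfolded protein response (6.44, others 5.83 to 6.00) and for squamous epithelium (4.02, others −2.01 to −1.18). Among inhibitor libraries, replicate 3 was highest for immediate early genes (4.70, others 4.07 to 4.25). Replicate 1 was highest for Hspa8 (11.37, others 10.93 to 11.09) and exocrine pancreas markers (−0.0016, others −0.999 to −0.684) and lowest for type I interferon stimulated genes (2.84, others 3.92 to 4.496). Replicate 6 was lowest for Ptgs2 (−0.031, others 1.60 to 2.37).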

How the results depend on the processing

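Under all settings run apart from DESeq2, 0 genes passed for inhibitor in non-inflamed transfer mice, with 101 to 805 genes at an unadjusted p under 0.05. DESeq2 called 8 genes there, 9 for the difference from inflamed mice and 65 for that from wild-type littermates, and limma-voom called 1 for the difference from inflamed mice; the cause was not tested. Every fit with 1 library left out called 0 in these comparisons, with 126 to 322 genes at an unadjusted p under 0.05 for the inhibitor itself. With a replicate block in place of batch the counts were also 0, with 133, 384 and 168 genes at an unadjusted p under 0.05. Same-numbered libraries correlated at 0.34, −0.04, 0.43 and 0.31 and shared a batch, so they were not taken as pairs. Named genes passed in 9 of 1353 gene and setting combinations, among them Pla2g4c, Nup205 and Stfa2l1 in DESeq2, and changed sign in 39. List medians changed sign in 213 of 1568. A setting that kept only calls of at least 2-fold reused the main estimates. It is counted in these totals and among the 28 settings above, but could change no sign. A term for Y-linked transcripts, leaving out vehicle 7 with inhibitor 5 or the squamous, pancreatic or small intestinal libraries, and the 2 groups alone without batch were chosen after seeing the data. Limma on the normalized signal was not run against the littermates, since the tables were normalized separately. Depth limits genes below about 1 CPM, above all in inhibitor 5.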

Other observations

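Circadian clock genes varied between animals in both treatments. Per2, a repressor of the clock, stood at 63.9, 49.6, 20.9, 28.6 and 48.7 CPM in the vehicle libraries and at 49, 32.4, 8.68, 12, 16.7 and 53.4 CPM in the inhibitor libraries. Of 19 clock genes 13 had negative differences, with a median of −0.11 (0.03 without vehicle 1) and 0 past the test.

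Enteric neuron and glia genes were negative for 16 of 17, with a median of −0.26 that was 0.39 without vehicle 4, and their summed level ran from 81.1 to 399.8 CPM with vehicle and from 81.4 to 208 CPM with the inhibitor. Intestinal stem cell and Wnt genes were negative for 12 of 14 (median −0.13), and EGF receptor ligands and receptors for 8 of 10 (−0.07), with 0 past the test in each. Jchain, the joining chain of secreted antibodies, was at 0.0985 to 0.999 CPM with vehicle and at 0 to 0.123 CPM with the inhibitor (log2 difference −2.81, 95% interval −4.57 to −1.05; edgeR, unadjusted p = 0.0033). All Jchain levels with the inhibitor lay below 0.148 CPM, the lowest level that 3 counts correspond to in these libraries. Of 16 B and plasma cell markers 5 were tested, with 2 positive, 3 negative and 0 past the test. Their median of −0.63 was −0.03 without vehicle 7. Mmp7, a protease of Paneth cells, was at 82.7 CPM in vehicle 6 and at no more than 5.19 CPM in the other 10.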
